A study of Mus musculus with 8 samples.

Results

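The 2′-5′-oligoadenylate synthetase (OAS) genes described here are the 8 mouse genes Oas1a, Oas1b, Oas1c, Oas1g, Oas2, Oas3, Oasl1 and Oasl2, of 55276 gene symbols in the deposited tables. They were taken from the tables by symbol, from a list of OAS family members drawn up with earlier results of these data known, and all 8 passed the filter on low values. RNA was sequenced from fibro-adipogenic progenitors (FAPs), which are mesenchymal progenitors resident in skeletal muscle. They were sorted as GFP+ cells negative for CD31, CD45 and TER-119 from tibialis anterior muscle injured by freeze-pierce. Control mice were Osr1flox/+ and Osr1cKO mice were Osr1flox/flox, both carrying the tamoxifen-inducible CAGG-Cre, so that control cells had also recombined an allele. Tamoxifen was given to both genotypes on the day of injury and on the following days, and recombination places GFP under the Osr1 locus. CAGG drives Cre in all tissues, so Osr1 was not removed from FAPs alone. Mice were 4 to 6 months old on a C57Bl6 background. There were 8 libraries, 2 per genotype at 3 days post injury (dpi) and 2 per genotype at 7 dpi. At 3 dpi 1 mouse gave a library, whereas at 7 dpi 4 mice were pooled for each, so the days also differ in pooling, and possibly in instrument, and these cannot be told apart from the day.

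OAS enzymes bind double-stranded RNA and then join ATP into short 2′-5′-linked oligoadenylates. These oligoadenylates (2-5A) are second messengers of the antiviral response. The genes are classic targets of interferon: type I interferon signals through its receptor, the kinases JAK1 and TYK2 and a complex of transcription factors, which binds a promoter element called the interferon-stimulated response element (ISRE). Oas1a, Oas1g, Oas2 and Oas3 encode active synthetases. Oas1b of common laboratory strains carries a premature stop and gives a truncated protein. Oas1c belongs to the Oas1 paralogs without known synthetase activity. The OAS-like proteins differ, in that OASL2 is an active synthetase with ubiquitin-like domains, and OASL1 is inactive and has been described as a translational repressor of Irf7.

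All 8 genes lie on chromosome 5 (GRCm38, the assembly of mm10; GENCODE M21 annotation). Oas2, Oas3, Oas1c, Oas1b, Oas1g and Oas1a lie within 177.2 kb at chr5:120730333-120907521, and Oasl2 and Oasl1 lie within 40.98 kb at chr5:114896936-114937915. Oas1b is on the plus strand and is annotated as a polymorphic pseudogene, and the 5 other genes of its cluster are on the minus strand. The annotated starts of Oas1b and Oas1c are 120 bases apart on opposite strands. Oasl1 and Oasl2 are both on the plus strand. The exons of Oas1a and Oas1g are partly identical: 47.6% of the 75-base windows of Oas1a transcripts also occur in Oas1g, and 36.9% of those of Oas1g occur in Oas1a. How the authors' counting divided such reads is not given in the sources used here, so the split between Oas1a and Oas1g is uncertain. No 75-base window of Oas1b, Oas2, Oas3, Oasl1 or Oasl2 occurred in another gene's transcripts, and 6.75% of those of Oas1c did.

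Because members moved together at 3 dpi (below), the stretches upstream of their starts are shown for the letters of the ISRE core. RefSeq promoter windows (GRCm38.p6, 250 bases before to 50 bases after a start) were present for 6 of the 8 genes. Oas1b and Oas2 were not among them. The motif searched was GAAANNGAAA on both strands, and capitals mark its matches, which overlap in Oas1a, Oas1g and Oas1c. Each stretch of 60 bases reads 5′ to 3′ on the strand of its gene.
Oas1a, chr5:120907526-120907585, minus strand: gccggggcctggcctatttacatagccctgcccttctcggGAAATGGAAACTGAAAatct
Oas1g, chr5:120887614-120887673, minus strand: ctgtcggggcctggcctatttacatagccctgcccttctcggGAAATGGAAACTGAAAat
Oas1c, chr5:120812591-120812650, minus strand: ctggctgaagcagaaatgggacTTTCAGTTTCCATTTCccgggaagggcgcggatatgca
Oas3, chr5:120777700-120777759, minus strand: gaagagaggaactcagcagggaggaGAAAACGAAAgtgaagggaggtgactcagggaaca
Oasl1, chr5:114923180-114923239, plus strand: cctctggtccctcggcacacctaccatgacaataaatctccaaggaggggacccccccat
Oasl2, chr5:114896874-114896933, plus strand: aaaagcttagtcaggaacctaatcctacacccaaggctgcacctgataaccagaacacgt

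The motif occurred in 4 of these 6 windows (Oas1a, Oas1c, Oas1g and Oas3) and in 3.44% of all 32851 promoter windows of the same length. In Oas1a and Oas1g the 2 overlapping matches lay within 20 bases of the start and the stretches were near copies of each other. In Oas1c the 2 matches were on the opposite strand, at chr5:120812613-120812628. That is just before the annotated start of Oas1b at chr5:120812635 and on the strand of Oas1b, which had no window of its own. The matches can therefore not be assigned to Oas1c alone. In Oas3 the 1 match lay from base -75 to base -66. Oasl1 and Oasl2 held no match in their windows, which says only that these letters were not in them. The GAS core TTCNNNGAA, a shorter motif searched in the same way, occurred in the window of Oas1a alone among the 6 and in 8.30% of all windows. A match describes the letters and was not tested as a binding site.

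The tables hold TPM, a length-normalised share of all transcripts that can be compared between genes. Between 36516528 and 51096358 fragments per library were recovered from these values. Among the 8 genes, the least covered one had between 38 and 488 fragments in a library and the most covered one between 3397 and 24958, so counting error was small beside the spread between mice at 3 dpi. All 9 FAP markers examined were expressed. One of them, Ly6a, which encodes SCA-1, stood in the library order of the OAS genes at 3 dpi, with 5407 and 4232 TPM in control against 3058 and 2020 TPM in Osr1cKO libraries, and was called lower (log2 difference -0.94, limma, unadjusted p = 0.0396, adjusted p = 0.784). None of the other 8 was called at 3 dpi. Ptprc, which encodes CD45, did not exceed 0.0515 TPM at 3 dpi, and the summed level of 11 macrophage markers ranged from 27.6 to 31.9 TPM at 3 dpi and from 55.6 to 91.9 TPM at 7 dpi. Single markers in this sum differed in direction at 3 dpi, with 6 of 10 tested negative and 4 positive. Cd68 was 15.4 and 8.38 TPM in control against 7.42 and 6.87 TPM in Osr1cKO libraries, and Cd14 was 7.97 and 8.12 TPM against 11.0 and 20.5 TPM. Osr1 itself, whose whole-gene TPM still counts what is left of the transcript, was 105 and 91.0 TPM in control against 70.7 and 71.9 TPM in Osr1cKO libraries at 3 dpi. Mitochondrial transcripts summed to 10413 and 5502 TPM in control against 5654 and 9617 TPM in Osr1cKO libraries at 3 dpi, so they did not follow the order of the OAS genes. In bulk samples, fewer cells expressing a gene and less RNA per cell cannot be told apart.

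At 3 dpi, FAPs of Osr1cKO mice had lower levels of every OAS gene than control FAPs. Summed over the 8 genes, OAS transcripts were 1160 ± 255 TPM in control and 403 ± 301 TPM in Osr1cKO FAPs (mean ± SD, n = 2). The libraries of each genotype differed widely: the sum was 1341 and 980 TPM in control libraries, 615 TPM in Osr1cKO replicate 1 and 190 TPM in Osr1cKO replicate 2. At 7 dpi the sum was 195.9 ± 0.737 TPM in control and 190.6 ± 24.5 TPM in Osr1cKO FAPs. Osr1cKO replicate 2 at 3 dpi thus held a sum like that of the 7 dpi libraries, while the other 3 libraries at 3 dpi lay above them.

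**Figure D1:**
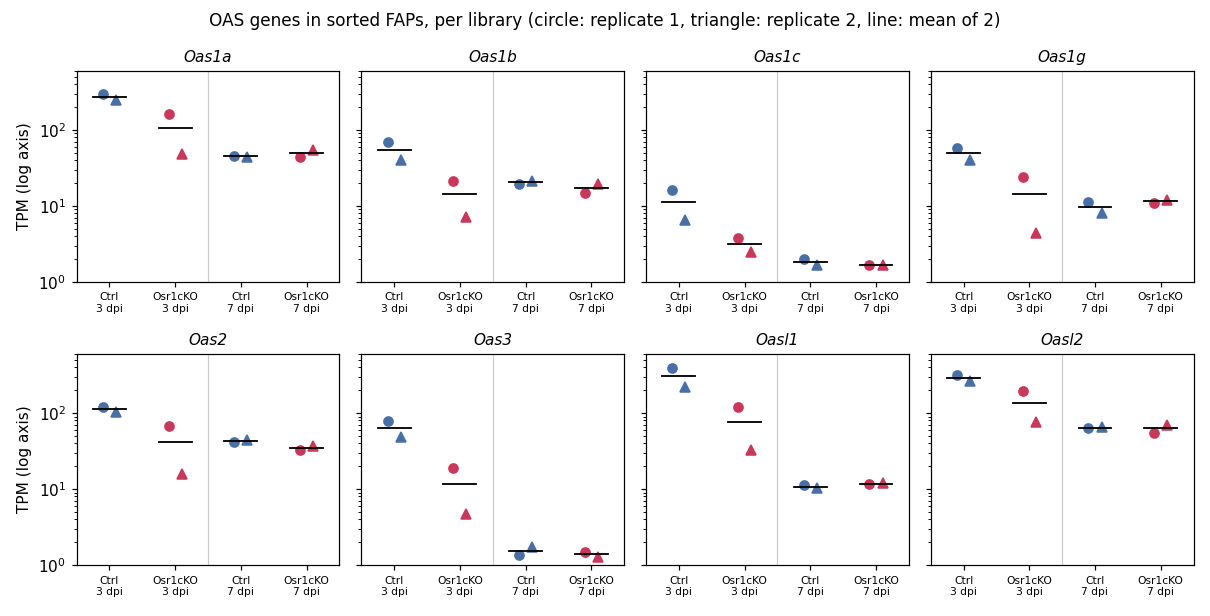
TPM of each OAS gene (log axis) in each of the 8 libraries, by genotype and day; circles are replicate 1, triangles replicate 2 and lines the mean of 2 libraries. At 3 dpi both control libraries lie above both Osr1cKO libraries for all 8 genes, and at 7 dpi Oas2 is the only gene whose control libraries both lie above the Osr1cKO libraries.

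Oasl1 had the highest mean level in control FAPs at 3 dpi, 306 TPM, followed by Oasl2 at 291 TPM and Oas1a at 272 TPM. The ranges of these 3 genes overlapped, so their order did not exceed the spread between libraries. Oas2 came next at 113 TPM, below Oas1a in both libraries, and was followed by Oas3, Oas1b and Oas1g at 62.8, 54.7 and 49.0 TPM, whose neighbouring ranges again overlapped. Oas1c was the lowest at 11.4 TPM. The 4 other paralogs of the cluster, Oas1d, Oas1e, Oas1f and Oas1h, did not exceed 1.24 TPM in any library.

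Among the active synthetases, Oas3, the largest OAS protein, had 77.6 and 48.1 TPM in control libraries and 18.9 and 4.74 TPM in Osr1cKO libraries at 3 dpi. The groups did not overlap, and the difference was -2.53 ± 0.63 on the log2(TPM + 1) scale (SE; limma, unadjusted p = 0.00996). This was the largest difference among the 8 genes. Oas2 had 120.8 and 104.4 TPM in control libraries and 68.1 and 15.9 TPM in Osr1cKO libraries. Its control libraries lay close together and its Osr1cKO libraries differed 4.28-fold. The log2 difference of Oas2 was -1.73 ± 0.67 (limma, unadjusted p = 0.0489).

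Oas1a, the main murine Oas1 paralog in these cells, had 294.5 and 250.4 TPM in control libraries and 162.5 and 47.6 TPM in Osr1cKO libraries, a log2 difference of -1.61 ± 0.58 (limma, unadjusted p = 0.0394). Oas1g had 57.8 and 40.2 TPM in control libraries and 23.9 and 4.34 TPM in Osr1cKO libraries, a log2 difference of -2.09 ± 0.74 (limma, unadjusted p = 0.0374). Both genes were lower in both Osr1cKO libraries. Since their reads may have been shared, their sum is the safer measure, and it was 352 and 291 TPM in control against 186 and 51.9 TPM in Osr1cKO libraries, 2.70-fold higher in control on the group means.

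Oas1b had 69.4 and 40.0 TPM in control libraries and 21.5 and 7.05 TPM in Osr1cKO libraries, a log2 difference of -1.99 ± 0.55 (limma, unadjusted p = 0.0152). Oas1c had 16.3 and 6.44 TPM in control libraries and 3.78 and 2.45 TPM in Osr1cKO libraries, a log2 difference of -1.48 ± 0.45 (limma, unadjusted p = 0.0212). Oas1c was the single gene of the 8 whose control libraries differed from each other (2.53-fold) by more than its Osr1cKO libraries did (1.55-fold).

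Of the OAS-like genes, Oasl1 had 390.0 and 222.9 TPM in control libraries and 119.6 and 32.5 TPM in Osr1cKO libraries at 3 dpi, a log2 difference of -2.22 ± 0.66 (limma, unadjusted p = 0.0195). Oasl2 had 314.4 and 267.6 TPM in control libraries and 196.9 and 75.3 TPM in Osr1cKO libraries, a log2 difference of -1.24 ± 0.47 (limma, unadjusted p = 0.0451). Oasl2 showed the smallest difference of the 8 genes, and neither gene's groups overlapped.

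By the rule of the study's methods at this day, an unadjusted p under 0.05 at over 1.2-fold, all 8 genes were called lower in Osr1cKO FAPs at 3 dpi, where 3.87% of the 15699 genes tested were called lower. Their median log2 difference was -1.86, against 0.01 over all genes tested. After Benjamini-Hochberg adjustment over all genes none of the 8 passed 0.1 (limma, adjusted p between 0.774 and 0.784), and neither did any other gene, with a smallest adjusted p of 0.336. Non-overlapping groups with lower Osr1cKO libraries were seen in all 8 OAS genes and in 18.0% of all genes tested.

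The libraries stood in one order for all 8 genes: control replicate 1, control replicate 2, Osr1cKO replicate 1 and Osr1cKO replicate 2. This order was seen in 7.69% of all genes tested. In 7 of the 8 genes the Osr1cKO libraries differed from each other by a larger fold than control replicate 2 differed from Osr1cKO replicate 1. Leaving out libraries changed the calls and the size of the differences. Each of these fits keeps 1 library in a group, so the differences alone are given here. The median log2 difference of the 8 genes was -2.77 with Osr1cKO replicate 1 left out and -1.09 with Osr1cKO replicate 2 left out. It was -2.22 when control replicate 2 was dropped and -1.62 when control replicate 1 was dropped. No OAS gene turned in direction in any of these fits.

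**Figure D2:**
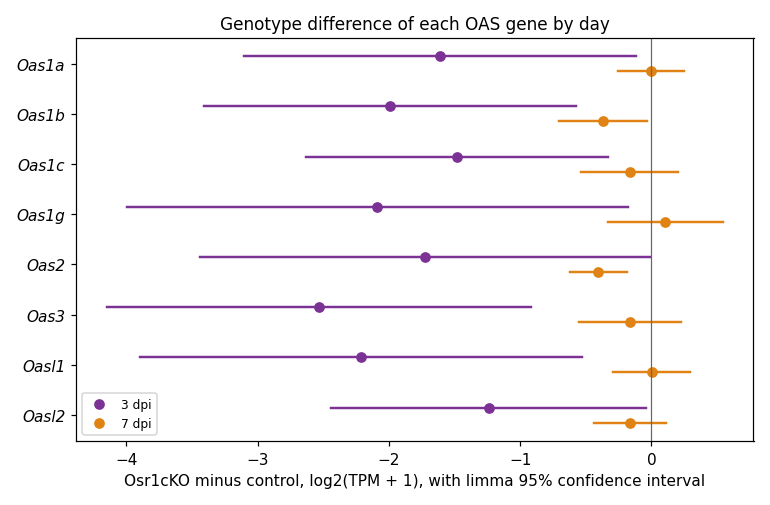
Difference of Osr1cKO from control on the log2(TPM + 1) scale with limma 95% confidence intervals, for each OAS gene at 3 dpi and at 7 dpi (n = 2 libraries per group). All 8 differences at 3 dpi lie between -2.53 and -1.24 with wide intervals that end below 0, while those at 7 dpi lie between -0.40 and 0.10 with narrow intervals.

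At 7 dpi, OAS levels were low in both genotypes and no gene passed the threshold of the study for this day, a fold change over 1.2 with an adjusted p under 0.1, which 0.0483% of the 16578 genes tested passed in the lower direction. Oas2 came nearest, with 41.3 and 44.0 TPM in control libraries and 32.8 and 37.3 TPM in Osr1cKO libraries, a log2 difference of -0.40 ± 0.09 (limma, unadjusted p = 0.0042, adjusted p = 0.260). Its groups did not overlap, which was seen in that direction in 10.7% of all genes tested. In the other direction 42.8% of all genes did not overlap on the deposited TPM, whose median over all genes was 0.11 higher in Osr1cKO libraries on the log2 scale, and Oasl1 was the 1 OAS gene among them. Oas1b had 19.3 and 21.5 TPM in control libraries and 14.9 and 19.3 TPM in Osr1cKO libraries, a log2 difference of -0.37 ± 0.13 (limma, unadjusted p = 0.0353, adjusted p = 0.365). By an unadjusted p under 0.05, Oas2 and Oas1b were the 2 genes called lower, against 5.83% of all genes tested. The other 6 had log2 differences between -0.17 and 0.10, with 95% confidence intervals between -0.55 and 0.54 at their widest. Oas1a, for example, had 45.7 and 44.2 TPM in control against 44.4 and 54.1 TPM in Osr1cKO libraries.

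The genotype difference was more negative at 3 dpi than at 7 dpi for all 8 genes, by between 1.03 (Oasl2) and 2.33 (Oas3) on the log2 scale. The genotype by day interaction did not pass an adjusted p of 0.05 for any of them (limma over all 8 libraries, smallest adjusted p 0.652). Unadjusted, 5 genes were under 0.05 (Oas1b, Oas1c, Oas1g, Oas3 and Oasl1), against 3.17% of all 17371 genes tested in that direction.

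In control FAPs, 6 of the 8 genes were lower at 7 dpi than at 3 dpi by a fold change over 1.2 with an adjusted p under 0.05, a call that 24.1% of all genes received in that direction. The size differed between genes. Oas3 went from 77.6 and 48.1 TPM to 1.34 and 1.73 TPM, a log2 difference of -4.57 ± 0.53 (limma, adjusted p = 0.0008), and Oasl1 went from 390.0 and 222.9 TPM to 11.3 and 10.2 TPM, a log2 difference of -4.58 ± 0.54 (limma, adjusted p = 0.0008). As ratios of group means these were 41.0-fold and 28.4-fold. Oas1a, Oas1c, Oas1g and Oasl2 were also called, with log2 differences between -2.50 and -1.95. Oas1b and Oas2 had log2 differences of -1.26 and -1.30 and were not called (limma, adjusted p = 0.0587 and 0.0921).

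In Osr1cKO FAPs, Oas3 and Oasl1 were the 2 genes called lower at 7 dpi, where 23.6% of all genes were called. Oas3 went from 18.9 and 4.74 TPM to 1.49 and 1.28 TPM, a log2 difference of -2.24 ± 0.53 (limma, adjusted p = 0.0144). Oasl1 went from 119.6 and 32.5 TPM to 11.7 and 11.9 TPM, a log2 difference of -2.41 ± 0.54 (limma, adjusted p = 0.0116). The other 6 log2 differences lay between -1.06 (Oasl2) and 0.32 (Oas1b). Osr1cKO replicate 2 at 3 dpi lay below all 7 dpi libraries for Oas1b, Oas1g and Oas2, within their range for Oas1a and above them for the other 4 genes. Calls and differences in this comparison moved with single libraries. The log2 difference of Oas2, for example, ranged from -1.06 to 1.01 when 1 library was left out.

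**Figure D3:**
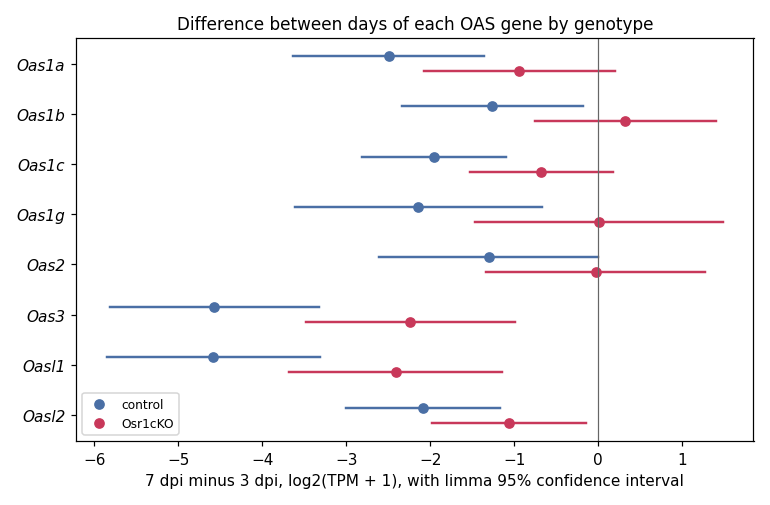
Difference of 7 dpi from 3 dpi on the log2(TPM + 1) scale with limma 95% confidence intervals, for each OAS gene in control and in Osr1cKO FAPs (n = 2 libraries per group). Oas3 and Oasl1 lie farthest from 0 in both genotypes, at about -4.57 and -4.58 in control and -2.24 and -2.41 in Osr1cKO FAPs.

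The make-up of the OAS transcripts therefore differed between days. Oasl1 made up 17.1% to 29.1% of the summed TPM in the 3 dpi libraries but 5.22% to 6.74% at 7 dpi. Oas3 made up 2.50% to 5.79% at 3 dpi but 0.616% to 0.881% at 7 dpi. Oas2 and Oas1b went the other way, Oas2 from between 8.37% and 11.1% to between 18.0% and 22.4%, and Oas1b from between 3.49% and 5.18% to between 8.62% and 11.0%. The share of Oas1a was between 22.0% and 26.4% in all 8 libraries.

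Ratios between related genes differed between the days as well. Oasl1 over Oasl2 was 1.24 and 0.833 in control and 0.607 and 0.431 in Osr1cKO libraries at 3 dpi, and between 0.158 and 0.211 at 7 dpi. Oas3 over Oas2 was 0.643 and 0.460 in control and 0.278 and 0.298 in Osr1cKO libraries at 3 dpi, and between 0.0324 and 0.0454 at 7 dpi. Oas1g over Oas1a, whose reads may have been shared, did not fall in this way, with 0.0912 to 0.196 at 3 dpi and 0.185 to 0.248 at 7 dpi. For the ratios of Oasl1 over Oasl2 and Oas3 over Oas2 the Osr1cKO libraries at 3 dpi lay between the control libraries of that day and the 7 dpi libraries. At 7 dpi the leading gene was Oasl2, at 64.0 TPM in control and 62.9 TPM in Osr1cKO FAPs, followed by Oas1a and Oas2, and Oas3 had the lowest mean of the 8, although its range overlapped that of Oas1c in control FAPs.

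**Figure D4:**
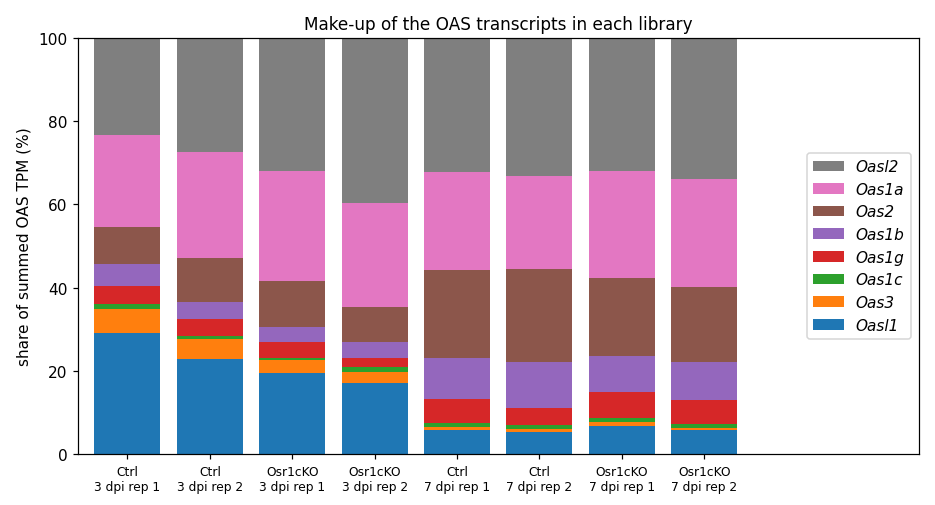
Share of each OAS gene in the summed OAS TPM of each library, in percent, as stacked bars. Oasl1 and Oas3, at the bottom of the bars, take a smaller share in every 7 dpi library than in any 3 dpi library, and Oas2 and Oas1b take a larger one.

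Across the 8 libraries the levels of the OAS genes varied together. As a description over libraries that share groups and scaling, Pearson's r between members of log2(TPM + 1) was between 0.680 (Oas1b and Oasl1) and 0.996 (Oas3 and Oasl1). The other genes most like the mean of the 8 scaled members were Ikbkg (r = 0.998), Psmb9, Uba7, Daxx, Psme1, Gbp3, Epsti1 and Phf11d (r = 0.994), over 8 libraries. Psmb9 and Psme1 encode an inducible proteasome subunit and an activator of the proteasome, and Uba7 encodes the activating enzyme for ISG15. Daxx was 198 and 141 TPM in control against 94.2 and 45.1 TPM in Osr1cKO libraries at 3 dpi, and between 41.2 and 43.6 TPM at 7 dpi. Gbp3 was 351 and 258 TPM in control against 179 and 57.5 TPM in Osr1cKO libraries at 3 dpi. These genes were picked for their likeness, so their levels are a description.

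At 3 dpi the libraries of Pde12, Abce1, Enpp1 and Akap7 did not stand in the order seen for the OAS genes. Pde12, whose product degrades 2-5A, was 10.8 and 12.1 TPM in control against 11.6 and 10.4 TPM in Osr1cKO libraries at 3 dpi, but 23.5 and 26.3 TPM in control against 13.5 and 14.1 TPM in Osr1cKO libraries at 7 dpi. The 7 dpi groups of Pde12 did not overlap, with a log2 difference of -0.93 ± 0.10 that missed the threshold of that day (limma, adjusted p = 0.128). Abce1, which encodes a ribosome recycling factor, was higher at 3 dpi than at 7 dpi in both genotypes (limma, adjusted p = 0.0023 in control and 0.0020 in Osr1cKO FAPs). Its levels were 89.3 and 104 TPM in control against 109 and 133 TPM in Osr1cKO libraries at 3 dpi, a genotype difference that was not called. At 7 dpi they were 50.1 and 45.5 TPM in control against 65.2 and 61.4 TPM in Osr1cKO libraries. The log2 difference of 0.27 ± 0.09 missed the threshold of that day (limma, unadjusted p = 0.0302, adjusted p = 0.351). Enpp1, which encodes another 2-5A-degrading phosphodiesterase, was 27.4 and 52.1 TPM in control against 131 and 57.4 TPM in Osr1cKO libraries at 3 dpi. That was a log2 difference of 1.18 ± 0.50 (limma, unadjusted p = 0.0636). Enpp1 and Akap7 were not called between genotypes at either day.

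**Figure D5:**
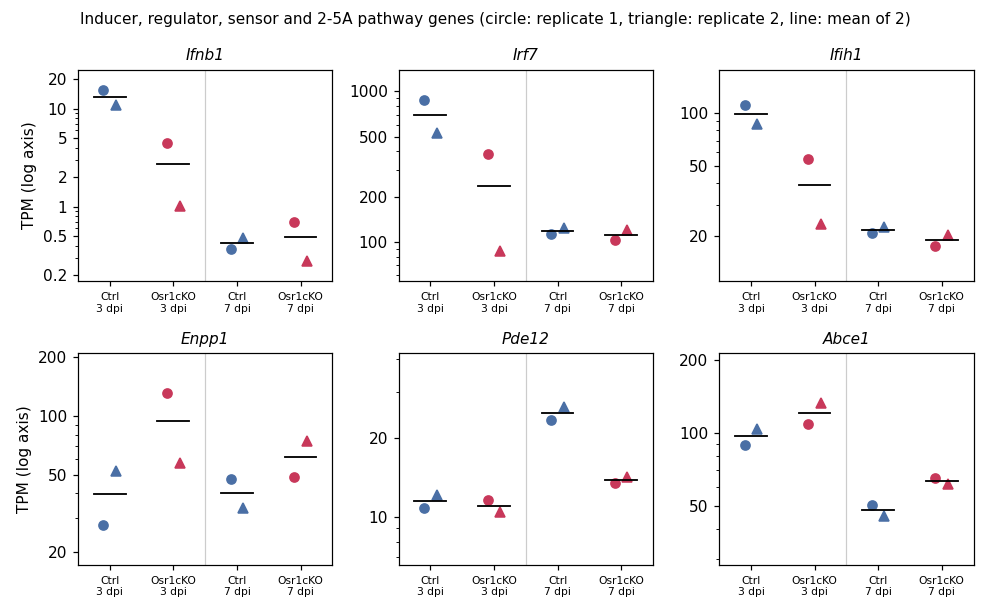
TPM (log axes, each with its own range) of Ifnb1, Irf7, Ifih1, Enpp1, Pde12 and Abce1 in each of the 8 libraries; circles are replicate 1, triangles replicate 2 and lines the mean of 2 libraries. Ifnb1, Irf7 and Ifih1 follow the library order of the OAS genes at 3 dpi, whereas Enpp1, Pde12 and Abce1 do not.

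Upstream of the OAS genes, the interferon ligands were nearly silent except for a pair. Ifnb1, which encodes interferon beta, was 15.6 and 10.9 TPM in control against 4.43 and 1.02 TPM in Osr1cKO libraries at 3 dpi, a log2 difference of -2.08 ± 0.52 (limma, unadjusted p = 0.0098, adjusted p = 0.774). At 7 dpi it did not exceed 0.69 TPM in any library. Ifna4 was 5.87 and 4.34 TPM in control against 1.83 and 0.41 TPM in Osr1cKO libraries at 3 dpi. It had few fragments, 41 and 31 in control against 13 and 3 in Osr1cKO libraries. Ifna4 thus passed the filter on low values through the control libraries alone, so no fitted difference is given. Ifnb1 had 146 and 104 fragments in control against 42 and 10 in Osr1cKO libraries. Ifnb1 and Ifna4 were the 2 of 17 interferon genes with enough fragments to be tested at 3 dpi. Ifnb1 was called lower, a call that 3.87% of all genes tested received. The correlation of Ifnb1 with the OAS mean was 0.986 over the 8 libraries. At 7 dpi Ifnb1 rested on 3 and 4 fragments in control and 5 and 2 in Osr1cKO libraries. The correlation is a description over libraries that share groups, and a link was not tested.

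Receptors and kinases of the interferon pathway showed no such difference. None of the 8 tested was called at 3 dpi, at an unadjusted p under 0.05 or after adjustment (limma), and their median log2 difference was -0.10. Ifnar1, a subunit of the type I interferon receptor, was 45.2 and 55.2 TPM in control against 59.2 and 64.5 TPM in Osr1cKO libraries, and Jak1 was 259 and 258 TPM in control against 222 and 261 TPM in Osr1cKO libraries. Of 9 transcription factors, 4 were called lower (Irf2, Irf5, Irf7 and Stat2), against 3.87% of all genes tested. Irf7, the regulator that amplifies type I interferon production, was 872 and 528 TPM in control against 384 and 87.8 TPM in Osr1cKO libraries, a log2 difference of -1.87 ± 0.73 (limma, unadjusted p = 0.0495).

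Sensors of nucleic acids, which share the double-stranded RNA ligand with OAS proteins in part, included 6 genes of 11 that were called lower at 3 dpi. Over all genes tested 3.87% were called in that direction. The median log2 difference of the list was -0.72. The sensor genes called were Ifih1 and Ddx58, which encode MDA5 and RIG-I, as well as Dhx58, Tlr3, Eif2ak2 and Zbp1. Ifih1 was 111 and 86.6 TPM in control against 54.8 and 23.3 TPM in Osr1cKO libraries, a log2 difference of -1.43 ± 0.42 (limma, unadjusted p = 0.0197, adjusted p = 0.774). The adaptor gene Mavs was 20.7 and 26.7 TPM in control against 22.1 and 24.7 TPM in Osr1cKO libraries and was not called. None of the 11 passed the adjusted threshold at 7 dpi, where 2 were lower by over 1.2-fold at an unadjusted p under 0.05 (limma). That call was given to 5.83% of all genes tested.

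Markers of cells that make much type I interferon were examined beside these results. Siglech, Flt3 and Xcr1, which mark plasmacytoid and other dendritic cells, did not exceed 0.0706 TPM in any library. The summed level of 9 dendritic markers was 2974 and 2426 TPM in control against 1923 and 506 TPM in Osr1cKO libraries at 3 dpi, but nearly all of it was Bst2, itself an interferon-stimulated gene. Without Bst2 it was 21.6 and 19.7 TPM in control against 19.6 and 21.3 TPM in Osr1cKO libraries, most of it Tcf4 and Zbtb46. The other 6 markers summed to 0.149 and 0.962 TPM in control against 0.192 and 0.212 TPM in Osr1cKO libraries. The summed level of 8 endothelial markers was 45.0 and 21.7 TPM in control against 17.3 and 18.1 TPM in Osr1cKO libraries at 3 dpi. Control replicate 1, highest for every OAS gene, also had the highest sum, which was mostly Tek and Kdr there. Kdr stood in the library order of the OAS genes, with 16.8 and 2.25 TPM in control against 1.12 and 0.88 TPM in Osr1cKO libraries. Tek did not, with 25.4 and 16.5 TPM in control against 14.9 and 15.4 TPM in Osr1cKO libraries. Cdh5, Emcn and Cldn5 were highest in control replicate 2 at 3 dpi, and none exceeded 1.12 TPM. Pecam1, Tie1 and Vwf were highest in control replicate 1, and Pecam1 was 1.19 and 1.10 TPM in control against 0.58 and 0.74 TPM in Osr1cKO libraries. Of the 8 endothelial markers 6 were tested at 3 dpi. All 6 had negative log2 differences, with a median of -0.30 and a lowest of -1.93, and none was called. The part of these cells in the result was not tested.

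Annotated transcripts that overlap OAS genes were few. Gm13822, antisense to Oasl1, shares 38 exon bases with it, which is 1.46% of the Oasl1 exons. It was 3.94 and 4.998 TPM in control against 0.23 and 0.44 TPM in Osr1cKO libraries at 3 dpi, and did not exceed 0.30 TPM at 7 dpi. The 3 dpi values were 17 and 22 fragments in control against 1 and 2 in Osr1cKO libraries. Gm13822 thus passed the filter on low values through the control libraries alone, so no fitted difference is given. Whether the authors' counting used strand is not given in the sources used here, so reads from the 38 shared bases may belong to either gene. Gm43069, antisense to Oas1c, shares 227 exon bases with it and did not exceed 0.28 TPM. Gm43068, inside Oas2, shares no exon bases with it.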

How the data were processed

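RNA of GFP+ FAPs was measured in 8 libraries. For these stranded libraries the authors used STAR with mm10 and normalised fragment counts with DESeq2; they deposited TPM per gene symbol. The counter, its annotation and its use of strand are not given in the sources used here. Of 55385 entries, 109 repeats of 106 symbols were left out. With GENCODE M21 exon lengths, between 98.7% and 98.9% of values under 50 fragments were within 0.02 of a whole number, which gave the depth. Genes with 10 fragments in 2 libraries and 15 in all were tested, or a mean TPM of at least 1 where a symbol had no length.

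Libraries were scaled to each other (mean of log ratios with a 30% trim) and tested with limma 3.58.1 (R 4.3.3, Python 3.11.15) on log2(TPM + 1), per day for genotype and over all 8 libraries for the interaction and the day. Adjustment was over all genes tested. The design had assumed counts, so this test replaced a count model. The procedure was run on simulated counts whose spread between libraries was set in advance. That run does not speak to calls at the spread seen between mice at 3 dpi. Level comparisons use the deposited TPM. The members and the gene lists were chosen with earlier results of these data known. Named genes were the 8 members, genes of the pathway lists, the 8 genes most correlated with the members and genes that overlap them; markers of other cells were given beside the results. The table headers of Osr1cKO libraries at 7 dpi carry other names than the labels, and each table was assigned by its sample record. With 2 libraries per group, p-values rest on few samples. Some results on pathway genes are not reported here.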

Additional observations from a re-analysis of the deposited data

How the results depend on the processing

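With 2 libraries per group, single libraries set the limits of every comparison, and at 3 dpi a library was 1 mouse. At 3 dpi, 4 of the 8 OAS genes were called with no filter on low values, and 0 OAS genes and 0 genes in all at an adjusted p under 0.1. At 7 dpi, 2 OAS genes and 966 genes in all were called lower at an unadjusted p under 0.05. The 8 genes called lower in all at 7 dpi became 0 with unscaled TPM, with no filter, with a mean TPM of at least 1 and with all 8 libraries fitted, 122 with limma-voom on recovered fragments and 14 with a replicate block. The interaction, with 0 genes called, gave 30 with no filter, 1 with a mean TPM of at least 1 and 3 with a pseudocount of 0.1. Unscaled TPM moved the median of all genes at 7 dpi from 0.01 to 0.11, and Oas1a at 7 dpi was then 0.12. Oasl1 at 7 dpi, at 0.0005, was -0.0044 with median of ratios, -0.0061 with no filter and with all 8 libraries, -0.0050 with a mean TPM of at least 1 and -0.0040 with limma-voom. Between days in Osr1cKO FAPs, Oas1g was -0.042 with no filter, and Oas2 was 0.074 unscaled, 0.026 with median of ratios and 0.060 with a mean TPM of at least 1. The cause was not tested in these cases.

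Leaving out 1 library, OAS genes called ranged from 2 to 8 at 3 dpi, 0 to 0 at 7 dpi, 0 to 2 for the interaction, 5 to 8 for the day in control and 0 to 6 for the day in Osr1cKO FAPs. Genes called in all ranged from 196 to 1723, 5 to 232, 0 to 76, 2606 to 4470 and 2282 to 4672. At 7 dpi Oas1a then ranged from -0.12 to 0.10, Oas1g from -0.12 to 0.33 and Oasl1 from -0.073 to 0.074; between days in Osr1cKO FAPs Oas1b ranged from -0.44 to 1.08, Oas1g from -1.12 to 1.14 and Oas2 from -1.06 to 1.01. Over all genes tested, same-numbered libraries did not deviate together (r = -0.13 at 3 dpi and 0.06 at 7 dpi). For all 8 OAS genes at 3 dpi, however, replicate 1 was above replicate 2 in both genotypes. With 2 libraries per group, whether the numbers pair libraries cannot be told, and the main fits used no pairing. The replicate block gave 649 genes called lower at 3 dpi, all 8 OAS genes among them, and a crossed replicate block, chosen after seeing the data, gave 685 and 8. The block changed no call of an OAS gene in any of the comparisons.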

Other observations

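Of 20 classic interferon-stimulated genes other than the OAS family, 14 were called lower in Osr1cKO FAPs (over 1.2-fold, unadjusted p under 0.05), with a median log2 difference of -1.49. Over all genes tested 3.87% were called in that direction. The 6 others (Bst2, Isg15, Mx2, Rtp4, Xaf1 and Ifi27l2a) were not called, and none of the 20 passed an adjusted p of 0.1 (limma). Mx1, an antiviral GTPase, was 186 and 67.6 TPM in control against 30.6 and 7.00 TPM in Osr1cKO libraries. At 7 dpi, 9 of the 20 were lower at an unadjusted p under 0.05, with a median log2 difference of -0.28, against 5.83% of all genes tested. Of 5 negative regulators of interferon signalling, Usp18 was the 1 called lower at 3 dpi, with 303 and 244 TPM in control against 164 and 46.6 TPM in Osr1cKO libraries.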
